A study of Mus musculus with 24 samples.

Results

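Kruppel-like factors are zinc finger transcription factors that bind GC-rich and CACCC sequences in promoters. Hormones, growth factors, neuronal activity and blood flow induce different members of the family within hours. The suprachiasmatic nucleus (SCN) is the hypothalamic pacemaker of daily rhythms, and in other mouse tissues the clock and glucocorticoids drive daily changes of some of these genes. The set described here consists of Klf2, Klf4, Klf6, Klf7, Klf9, Klf10, Klf13 and Klf15, taken by their symbols in the platform annotation. All 8 were measured, each by 1 probe set, among 19938 genes in all, and all 8 exceeded the filter on dim genes that left 13956 genes for testing. Of the 8, limma called a 24-h rhythm for 2, Klf15 and Klf6, against 7.65% of all genes tested.

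The arrays carried SCN RNA of C57/BL6 mice that had lived under 12 h of light and 12 h of darkness for 3 weeks and were then kept in complete darkness. Collection began at circadian time (CT) 18 and went on at steps of 2 h until CT 64, with 1 array per time and equal amounts of RNA of 3 mice pooled on each. The second cycle, CT 42 to CT 64, and the first cycle, CT 18 to CT 40, hold 12 arrays each at the same circadian times. Age and sex were not given in the labels, and pooling hides the spread between mice. Values are log2 probe set intensities after RMA, a normalisation across arrays. Brightness of different probe sets cannot be compared, so each gene is described against its own mean. A gene is called when its p-value from limma, adjusted over all 13956 genes, is below 0.05. Amplitudes run from mean to peak in log2 units, peak times are hours of circadian time from 0 to 24 (subjective night from 12), and ± gives the standard error from the cosine fit, to 24 arrays or, for values of 1 cycle, to the 12 arrays of that cycle.

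All 12 SCN marker genes of the list used here passed the filter. The arrays at CT 40, CT 62 and CT 64 had the narrowest interquartile ranges, 2.48, 2.67 and 2.65, against 2.72 to 2.90 in the other arrays. They also had the highest array background, the mean of 1194 olfactory and vomeronasal receptor genes, at 0.34, 0.19 and 0.16 against -0.15 to 0.04 elsewhere. The mean of 5 tested anterior pituitary markers ranged from -0.69 to 0.36 in the second cycle and from -0.49 to 2.00 in the first, with its maximum at CT 20. The arrays give RNA per tissue sample, so fewer cells of a type and less RNA per cell cannot be told apart.

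Promoter sequences of 7 of the 8 genes were found in the RefSeq table of build GRCm38.p6, and Klf10 was not matched. The 250 bases before the 1 transcription start that the table gives for each gene are printed 5′ to 3′ on the strand of the gene, for both called genes and for Klf4 and Klf9, which differ in the motifs they hold. Capitals mark the E-box CACGTG, the element bound by CLOCK and BMAL1, and TGACG on either strand, the core of the cAMP response element. For Klf15 and Klf7 the start in the table is an internal one, since their windows lie inside the annotated gene (for Klf15 chr6:90461043-90491803), while the other 5 windows end where the gene begins.
Klf15 (chr6:90462326-90462575, plus strand): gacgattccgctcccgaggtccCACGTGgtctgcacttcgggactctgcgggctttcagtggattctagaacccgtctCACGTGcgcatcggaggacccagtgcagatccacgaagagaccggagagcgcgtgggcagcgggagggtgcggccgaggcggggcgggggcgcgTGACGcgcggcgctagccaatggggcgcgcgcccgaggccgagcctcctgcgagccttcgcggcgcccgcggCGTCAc
Klf6 (chr13:5861239-5861488, plus strand): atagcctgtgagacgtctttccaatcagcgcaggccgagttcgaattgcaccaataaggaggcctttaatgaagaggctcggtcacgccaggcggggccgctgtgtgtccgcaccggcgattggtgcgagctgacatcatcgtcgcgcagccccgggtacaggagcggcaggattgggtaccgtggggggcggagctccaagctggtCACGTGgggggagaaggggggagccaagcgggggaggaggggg
Klf4 (chr4:55532476-55532725, minus strand): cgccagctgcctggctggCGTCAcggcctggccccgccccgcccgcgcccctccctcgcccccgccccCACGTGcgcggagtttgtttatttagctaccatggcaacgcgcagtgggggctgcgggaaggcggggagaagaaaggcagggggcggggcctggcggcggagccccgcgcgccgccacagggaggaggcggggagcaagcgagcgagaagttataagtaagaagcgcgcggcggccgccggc
Klf9 (chr19:23140976-23141225, plus strand): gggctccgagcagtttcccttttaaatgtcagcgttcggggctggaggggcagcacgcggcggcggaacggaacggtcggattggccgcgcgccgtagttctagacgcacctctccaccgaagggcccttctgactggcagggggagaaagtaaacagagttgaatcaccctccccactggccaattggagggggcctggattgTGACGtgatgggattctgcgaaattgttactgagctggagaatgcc

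Both called genes held an E-box in this window. Klf15 held it before this internal start at positions -228 to -223 and again at -172 to -167, counted back from the base before the start as -1, and Klf6 held it at -43 to -38. Klf4, which was not called, held it at -182 to -177. Of all 32851 promoters listed, 6.02% held the E-box at least once, and 0.429% held 2 or more copies. TGACG or its reverse complement was found in 5 of the 7 (Klf2, Klf4, Klf9, Klf13 and Klf15) and in 17.8% of all promoters. The E-box-like CACGTT (3.85% of all promoters), the D-box letters TTATGTAA or TTATGCAA (1.5%), the nuclear receptor hexamer AGGTCA (14%) and the hexamer TGTTCT of glucocorticoid response elements (16.1%) were in none of the 7 windows, with both strands searched. The full cAMP response element TGACGTCA, which contains TGACG, was in none either (1.55%). The GC box GGGCGG was in 6 of 7, against 32.7% of all promoters, and CACCC in 5 of 7, against 52%. These windows were GC-rich, from 59.2% to 74.0% G or C, against a median of 52.4% over all promoters, and a match is a description of letters only.

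Klf15, a glucocorticoid-induced regulator of amino acid and lipid metabolism in mouse liver, muscle and heart, had the largest 24-h amplitude of the 8 genes. Its log2 values in the second cycle had a lowest of 7.14 at CT 46, a median of 7.32 and a highest of 7.61 at CT 62. In the first cycle the lowest was 7.07 at CT 22, the median 7.28 and the highest 7.83 at CT 36. The high arrays of both cycles thus lay around the change from subjective day to night, and the low arrays in the late night and early day. The fitted amplitude was 0.19 ± 0.03 and the peak at 11.5 ± 0.68 h, a 1.302-fold change from trough to peak (limma F test, adjusted p = 0.00371).

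Klf15 kept its call in 24 of 24 fits that each left out 1 array, with adjusted p from 0.00324 to 0.0103. The array at CT 36 stood 0.51 above its mean, and without that array the amplitude was 0.16 (adjusted p = 0.0086). Without the 3 arrays of narrow range the amplitude was 0.18 (adjusted p = 0.0104), and once the array background entered as a covariate it was 0.19 (0.0137). At 10 of the 12 circadian times both arrays of Klf15, taken 24 h apart, lay on the same side of its mean, against a median of 7 over all genes tested and 9 over the genes called rhythmic. The best-fitting period was 23.8 h, with a 95% range from 21.8 to 26.7 h. Without the 3 arrays of narrow range it was 22.5 h, and the range ran from the lower search limit of 20 h to 26.2 h.

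**Figure D1:**
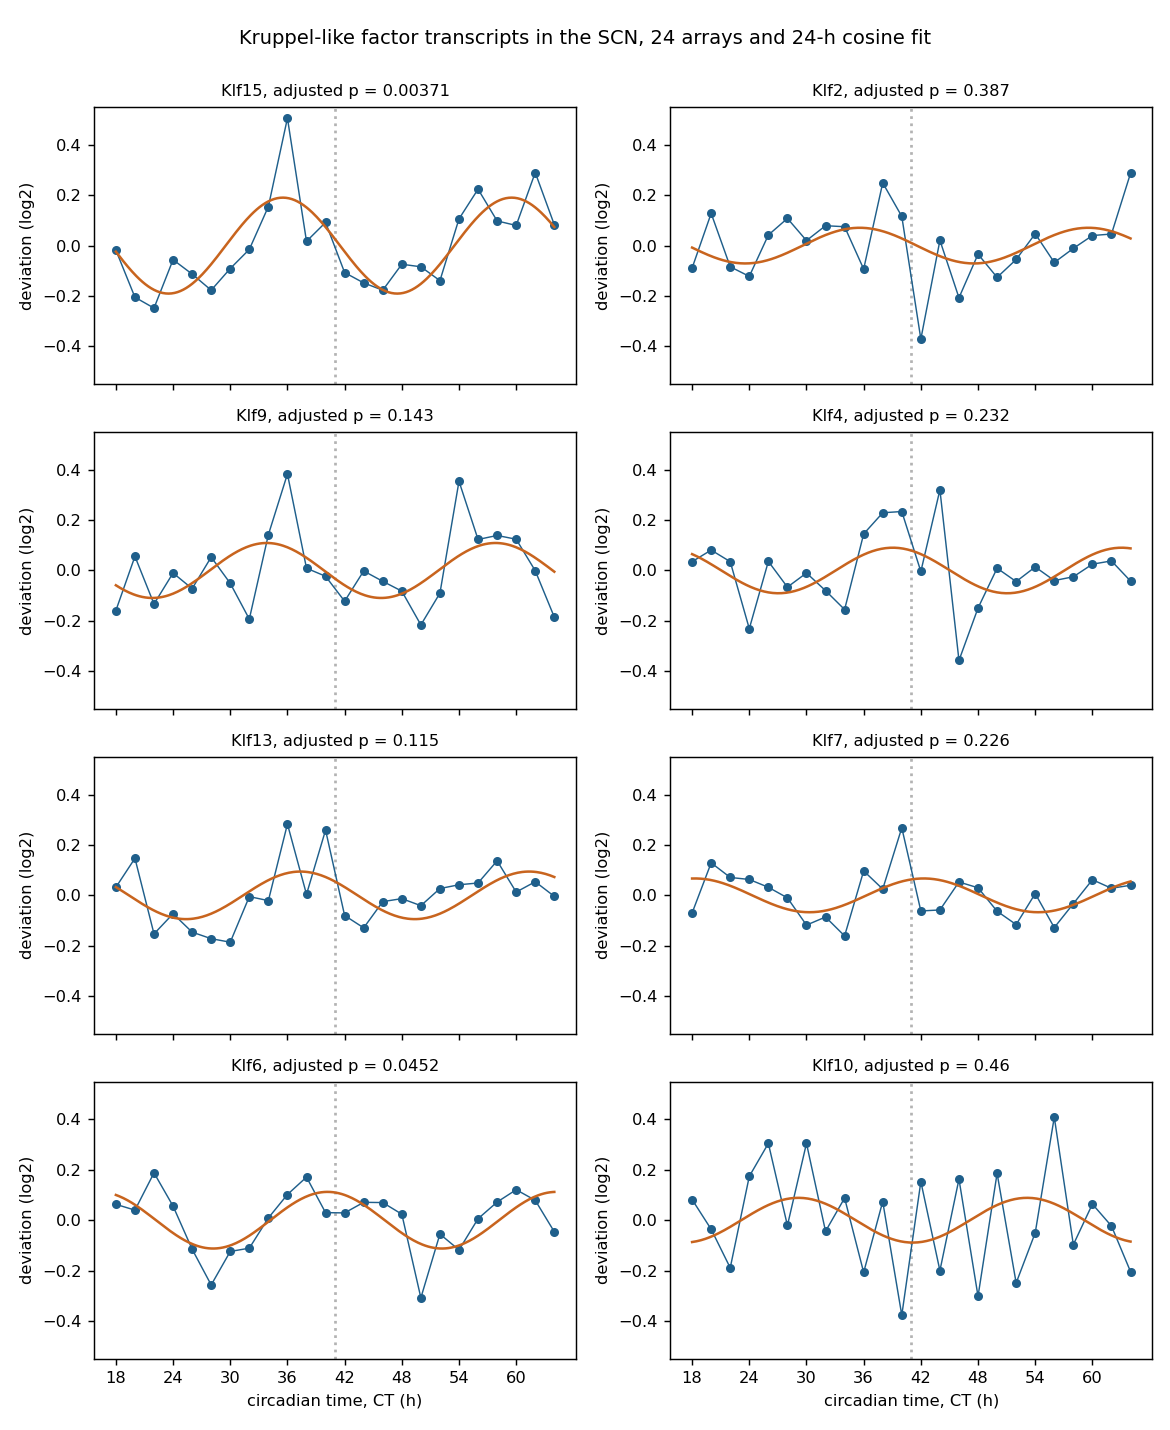
Deviation of each Kruppel-like factor from its own mean (log2, vertical axis) on the 24 arrays against circadian time from CT 18 to CT 64, with points for arrays, a smooth line for the 24-h cosine fit and a dotted line between the cycles. Klf15 follows the fit in both cycles, Klf6 dips at CT 28 and CT 50, and Klf10 swings between neighbouring arrays.

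Klf9, induced by glucocorticoids and thyroid hormone and a repressor in neurons and skin, had high arrays at a similar phase. In the second cycle its lowest value was 6.90 at CT 50, its median 7.10 and its highest 7.47 at CT 54. In the first cycle the lowest was 6.93 at CT 32, the median 7.10 and the highest 7.501 at CT 36. The 2 highest arrays thus fell at circadian times 6 and 12. Its amplitude was 0.11 ± 0.04 with a fitted peak at 9.83 ± 1.37 h, and the rhythm did not pass (adjusted p = 0.143, unadjusted p = 0.0317). It was not called in any of the 14 other settings or 24 leave-one-out fits, where the smallest adjusted p was 0.0617, without CT 32.

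Klf13, a close relative of Klf9 that also recruits co-repressors, had in the second cycle a lowest value of 6.49 at CT 44, a median of 6.62 and a highest of 6.75 at CT 58. In the first cycle the lowest was 6.43 at CT 30, the median 6.60 and the highest 6.90 at CT 36, closely followed by 6.87 at CT 40, the array of highest background. The first cycle therefore spanned a wider range than the second. Over both cycles the amplitude was 0.09 ± 0.03 with a peak at 13.4 ± 1.28 h and did not pass (adjusted p = 0.115, unadjusted p = 0.0209).

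Across the 24 arrays, Klf13 and Klf15 had the highest correlation of the 28 pairs of these genes (Pearson's r = 0.65, Spearman's rho = 0.63), followed by Klf9 and Klf15 (r = 0.60, rho = 0.46). These values describe points that share arrays, RNA pools and array background, and no p is given. Without CT 36, where Klf15, Klf9 and Klf13 each reached their highest value, r was 0.50 for Klf13 and Klf15 and 0.41 for Klf9 and Klf15. Klf9 and Klf13 themselves had r = 0.46, and 0.26 without CT 36. Without the 3 arrays of narrow range, Klf9 and Klf15 came first with r = 0.72, before Klf13 and Klf15 with 0.68, and Klf9 and Klf13 had 0.56. The lowest correlations were those of Klf10 with Klf7 (r = -0.45) and with Klf13 (r = -0.42). Without the 3 arrays of narrow range these were -0.265 and -0.291.

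**Figure D2:**
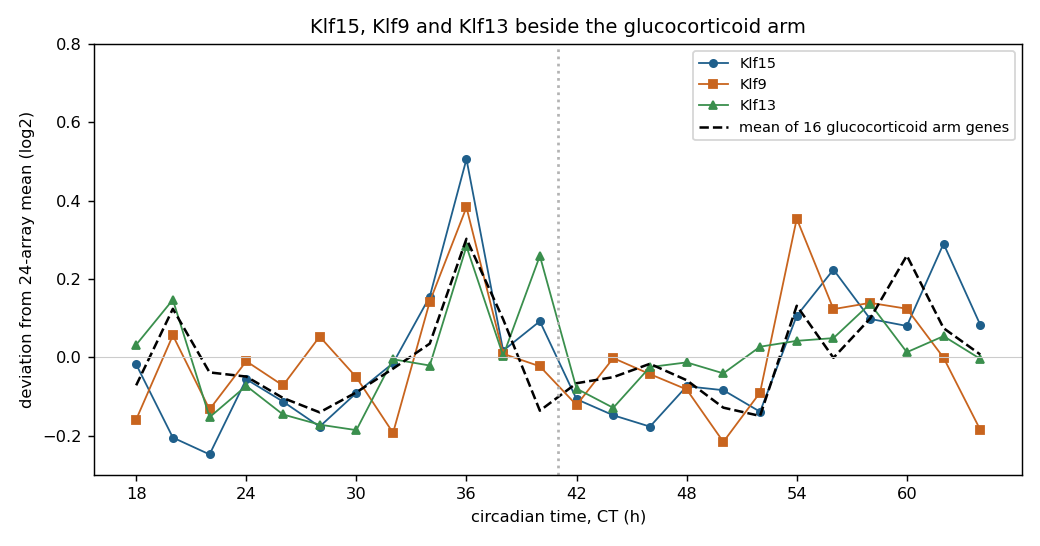
Deviation from the 24-array mean (log2, vertical axis) of Klf15, Klf9 and Klf13 against circadian time in h, beside the mean of 16 glucocorticoid arm genes (dashed line). All 4 lines have their maximum at CT 36, and at CT 60 the mean of the arm stands at 0.26 while Klf15, Klf9 and Klf13 stand at 0.08, 0.12 and 0.01.

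Glucocorticoid-responsive genes other than the Kruppel-like factors were set beside them. Of the 16 tested genes of this list, which includes the receptor gene Nr3c1, 7 were called (10 at an unadjusted p under 0.05). Over all genes tested the shares were 7.65% and 27.5%. The median amplitude of the list was 0.15, against 0.07 over all genes tested. Of the 7, the late subjective day (6 to 12 h) held 3 peaks, the early night (12 to 18 h) 3 and the late night 1. Tsc22d3, which encodes the glucocorticoid-induced leucine zipper protein, had its peak at 14.1 ± 0.47 h (amplitude 0.25 ± 0.03), and the metallothionein genes Mt1 and Mt2 at 11.9 ± 0.53 and 9.02 ± 0.62 h (amplitudes 0.19 and 0.23). Per1, also part of the clock loop, peaked earlier at 6.30 ± 0.53 h (amplitude 0.33 ± 0.05). The list mean peaked at 12.5 h with an amplitude of 0.10 ± 0.03. Its highest array was CT 36, where it stood 0.30 above its own mean. The list and Klf15 were chosen with earlier results of these data known, so their likeness in phase is a description.

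Klf6, an injury- and growth factor-induced gene that promotes axon growth in zebrafish and mouse, was the other called gene. In the second cycle its lowest value was 7.52 at CT 50, its median 7.86 and its highest 7.95 at CT 60. In the first cycle the lowest was 7.58 at CT 28, the median 7.87 and the highest 8.02 at CT 22. Its course was a dip in the early subjective day rather than a sharp peak: the mean of both arrays was 7.62 at circadian time 2, 7.68 at 4 and 7.71 at 6, against 7.78 to 7.96 at the other circadian times. The fitted amplitude was 0.11 ± 0.03 and the peak at 16.2 ± 1.01 h, a 1.17-fold change (adjusted p = 0.0452). As with Klf15, both arrays lay on the same side of its mean at 10 of the 12 circadian times, which 6.04% of all genes tested reached or exceeded.

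The call of Klf6 sat at the threshold. It was kept in 6 of 24 fits that each left out 1 array, and the adjusted p rose up to 0.0961, without CT 28, where the amplitude was 0.10. The adjusted p was also above 0.05 with no filter on dim genes (0.0678), with anterior pituitary markers as a covariate (0.0552) and with linear time as a covariate (0.0520). In these 3 fits the amplitude was still 0.11, and the unadjusted p was 0.00388, 0.00338 and 0.00344, against 0.00313 in the fit with the filter and no covariate. Without the 3 arrays of narrow range, which lie near its fitted peak, its amplitude was 0.145 (adjusted p = 0.0229), and once the array background entered as a covariate it was 0.13 (0.0359). Its best-fitting period was 20.3 h. The 95% range, from the lower search limit of 20 h to 23.1 h, left out 24 h, but without the 3 arrays the best period was 21.5 h and the range reached 24.3 h.

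**Figure D3:**
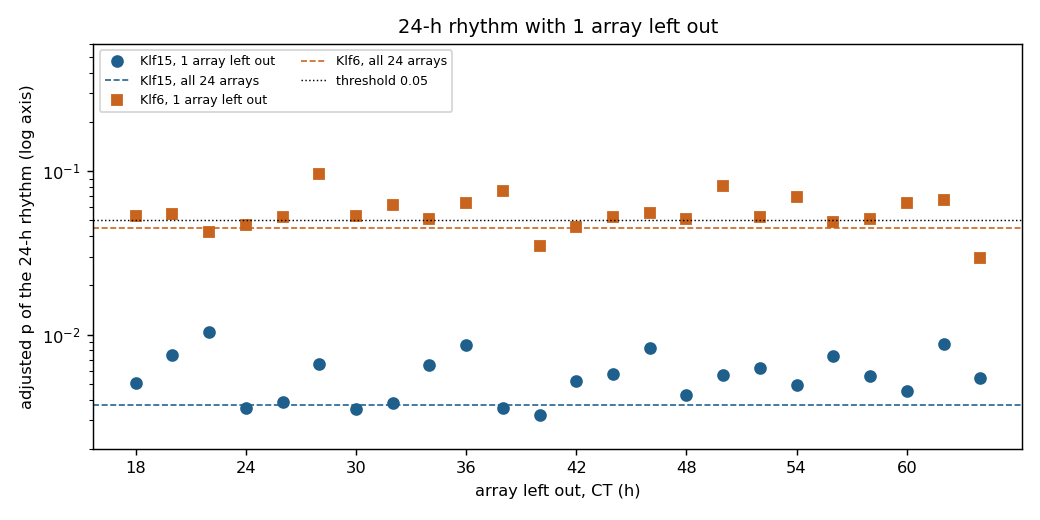
Adjusted p of the 24-h rhythm (vertical log axis) of Klf15 and Klf6 when the array at the circadian time on the horizontal axis (h) is left out, with dashed lines for all 24 arrays and a dotted line at 0.05. All 24 points of Klf15 lie below 0.05, and 6 of the 24 points of Klf6 do.

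Klf7, the nearest relative of Klf6 and a regulator of neurotrophin receptor genes and axon growth in mouse neurons, moved less. Its lowest, median and highest values were 8.25 (CT 56), 8.37 and 8.44 (CT 60) in the second cycle, against 8.22 (CT 34), 8.41 and 8.65 (CT 40) in the first. The highest array was CT 40, the one with the highest array background. The amplitude was 0.07 ± 0.03 with a fitted peak at 18.3 ± 1.60 h (adjusted p = 0.226), and 0.05 without CT 40 (0.327).

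Klf2 and Klf4, both induced by laminar blood flow in endothelium through ERK5 and MEF2, showed no called rhythm. Klf2 had lowest, median and highest values of 6.56 (CT 42), 6.90 and 7.21 (CT 64) in the second cycle and 6.81 (CT 24), 6.99 and 7.18 (CT 38) in the first. Klf4, also a pluripotency factor, had 5.61 (CT 46), 5.95 and 6.28 (CT 44) in the second cycle and 5.73 (CT 24), 5.998 and 6.20 (CT 40) in the first. For Klf4 the highest and lowest array of all 24 were thus neighbours in time. The amplitude of Klf2 was 0.07 ± 0.04 (peak 11.6 ± 2.07 h, adjusted p = 0.387) and that of Klf4 0.09 ± 0.04 (peak 15.1 ± 1.62 h, adjusted p = 0.232).

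Of 11 tested genes of the ERK5 and MEF2 arm, 2 were called (5 at an unadjusted p under 0.05). Over all genes tested, 7.65% were called and 27.5% had an unadjusted p under 0.05. Mef2c, a transcription factor of neurons and vessels, peaked at 1.27 ± 0.88 h (amplitude 0.19 ± 0.04), and Hdac9, a deacetylase that binds MEF2, at 23.6 ± 0.88 h (0.24 ± 0.05). Neither fitted peak was near those of Klf2 and Klf4, whose own peaks were not called. Of 11 tested endothelial markers 1 was called, Cldn5, a tight junction gene. The endothelial mean ranged from -0.12 to 0.12 in the second cycle and from -0.11 to 0.14 in the first. With that mean as a covariate the amplitude was 0.06 for Klf2 (adjusted p = 0.488) and 0.086 for Klf4 (0.237). In the same fit the adjusted p of Klf15 was 0.00515 and that of Klf6 0.0375.

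Klf10, a TGF-beta-inducible repressor whose promoter is driven by the clock in mouse liver, varied most between arrays, and its 24-h rhythm was not called. Its values had a lowest of 5.37 (CT 48), a median of 5.63 and a highest of 6.08 (CT 56) in the second cycle, against 5.29 (CT 40), 5.70 and 5.98 (CT 30) in the first. Neighbouring arrays were often far apart, as at CT 46, CT 48, CT 50 and CT 52 with 5.83, 5.37, 5.86 and 5.42. The standard deviation over 24 arrays was 0.21, the largest of the 8, while the mean of 5.67 was the nearest to the filter at 5.52. Its amplitude was 0.09 ± 0.05 with a peak at 5.15 ± 2.31 h (adjusted p = 0.460). Without CT 40, its lowest array and the one of highest background, the amplitude was 0.063 (adjusted p = 0.672). Without the 3 arrays of narrow range it was 0.045 (0.837). Of 12 tested genes of the TGF-beta arm limma called only Skil, a SMAD co-repressor (1.76 ± 1.03 h, amplitude 0.14 ± 0.04). In this arm 3 genes had an unadjusted p under 0.05. The shares over all genes tested were 7.65% called and 27.5% at an unadjusted p under 0.05.

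At an unadjusted p under 0.05 the count of Kruppel-like factors with a 24-h rhythm was 4 (Klf6, Klf9, Klf13 and Klf15), against 27.5% of all genes. The median amplitude of the 8 was 0.09, against 0.07 over all genes. Fitted peaks fell in the late subjective day for Klf9, Klf15 and Klf2, in the early night for Klf13, Klf4 and Klf6, at 18.3 h for Klf7 and at 5.15 h for Klf10. The array background itself had a fitted 24-h amplitude of 0.08 ± 0.03 with a peak at 13.5 h. With the background as a covariate the amplitude was 0.04 for Klf2, 0.065 for Klf4, 0.06 for Klf7, 0.07 for Klf10 and 0.09 for Klf13. For Klf9, Klf6 and Klf15 it was 0.135, 0.13 and 0.19. Of the 1067 called genes of the whole table, 57.2% peaked before 6 h, 8.72% in the window of Klf15 (6 to 12 h) and 20.3% in that of Klf6 (12 to 18 h).

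**Figure D4:**
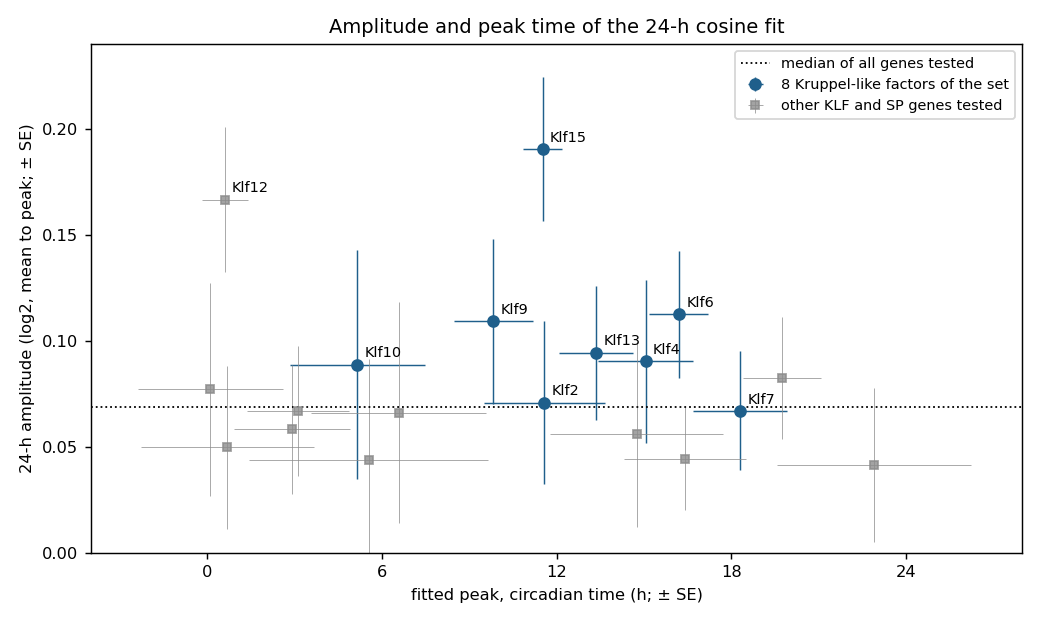
Fitted 24-h amplitude (log2 from mean to peak, vertical axis) against fitted peak time (h of circadian time, horizontal axis) with standard errors of the fit, for the 8 Kruppel-like factors (circles) and 11 other KLF and SP genes (squares). The dotted line is the median amplitude of all genes tested, 0.07. Klf15 at 11.5 h and Klf12 at 0.60 h have the highest amplitudes.

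Of 11 other tested genes of the KLF and SP family, 1 was called (2 at an unadjusted p under 0.05), with a median amplitude of 0.06. This was Klf12, a repressor that recruits CTBP, which peaked at 0.60 ± 0.79 h (amplitude 0.17 ± 0.03, adjusted p = 0.0118). Its peak lay nearly opposite to that of Klf15. Of 13 cofactors and ligases of Kruppel-like factors, 1 was called (2 at an unadjusted p under 0.05). This was the deacetylase gene Hdac3 (3.85 ± 0.94 h, amplitude 0.14 ± 0.04). Among all genes tested, 7.65% were called and 27.5% had an unadjusted p under 0.05. Of 14 genes reported as targets of these factors in other tissues, 5 had an unadjusted p under 0.05 and 3 were called. These were the cell adhesion gene L1cam at 1.3 h (amplitude 0.22 ± 0.05), the potassium channel subunit gene Kcnip2, a KLF15 target in mouse heart, at 1.63 h (0.12 ± 0.03), and Cebpa at 16.4 h (0.14 ± 0.03).

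Of 18 clock loop genes 15 were called. Per2, a repressor of its own transcription, peaked at 9.53 ± 0.28 h and Dbp, an activator at D-boxes, at 7.29 ± 0.32 h, so the fitted peak of Klf15 was later than both. Nr1d1, which encodes a repressor of Arntl, had its peak at 3.89 h, and Nfil3, a repressor at D-boxes, at 19.1 ± 0.50 h, after Klf6. These differences in peak time were not tested. Of 20 tested immediate early genes 4 were called (8 at an unadjusted p under 0.05), namely Sik1 (4.28 h), Nr4a3 (3.0 h), Ier5 (21.02 h) and Maff (7.19 h). None of these 4 peaked between 12 and 18 h, the window of 20.3% of all called genes. Both lists stand against 7.65% called and 27.5% at an unadjusted p under 0.05 over all genes tested.

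By Pearson's r, the genes whose 24 values were most like those of Klf15 were Nol3, an inhibitor of apoptosis (r = 0.80), Mt1 (0.78) and Trappc6a, a vesicle tethering subunit (0.77). Their Spearman's rho was 0.77, 0.76 and 0.70, which ranked 2, 4 and 22 among all genes tested. By r without the 3 arrays of narrow range, Nol3, Mt1 and Trappc6a ranked 1, 10 and 12. All 3 genes had fitted peaks at 11.9 h, but of these only the rhythm of Mt1 was called (adjusted p = 0.0618 for Nol3 and 0.064 for Trappc6a). Those most like Klf6 were the interferon-induced Ifit2 (r = 0.83), the potassium channel gene Kcnn2 (0.81) and the HSP70 family gene Hspa2 (0.76), with rho of 0.69, 0.66 and 0.70. Their fitted peaks fell at 15.4, 15.8 and 16.4 h, and the rhythm of Kcnn2 was not called (adjusted p = 0.0744). By Spearman's rho these 3 ranked only at 21, 41 and 17.5 among all genes tested. By r without the 3 arrays of narrow range, Ifit2, Kcnn2 and Hspa2 ranked 1, 3 and 2. These 6 genes were picked for the highest r among all genes tested, and the points share arrays, so the values carry no test.

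The second comparison asked whether levels differed between the second and the first cycle. None of the 8 genes was called by limma or had an unadjusted p under 0.05. Over all genes 0.0% were called and 8.71% had an unadjusted p under 0.05. Klf2 had the largest difference, with a mean of 6.89 in the second cycle and 6.96 in the first (-0.07 ± 0.05, adjusted p = 0.709). The remaining 7 differed by -0.04 to 0.03. The median absolute difference was 0.025 for the 8 genes, against 0.042 over all genes tested.

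The third comparison asked whether the rhythm itself changed between cycles. In the second cycle Klf15 peaked at 10.9 ± 0.82 h (amplitude 0.18 ± 0.04), and in the first at 12.0 ± 1.07 h (0.21 ± 0.06). Klf6 had 0.10 ± 0.04 at 15.0 ± 1.69 h in the second cycle and 0.14 ± 0.04 at 17.0 ± 1.06 h in the first. For both, the difference between cycles did not pass (adjusted p = 0.9999 each, unadjusted p = 0.666 for Klf15 and 0.496 for Klf6). Klf13 differed most, with 0.08 ± 0.02 and a peak at 8.91 ± 0.84 h in the second cycle, against 0.17 ± 0.04 and a peak at 15.0 ± 0.97 h in the first. The difference had a size of 0.19 ± 0.06 and an unadjusted p of 0.00716, and did not pass over all genes (adjusted p = 0.9999). In all, 0 of the 8 genes and 0.0% of all genes were called by limma, and 1 of the 8 and 2.42% of all genes had an unadjusted p under 0.05.

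**Figure D5:**
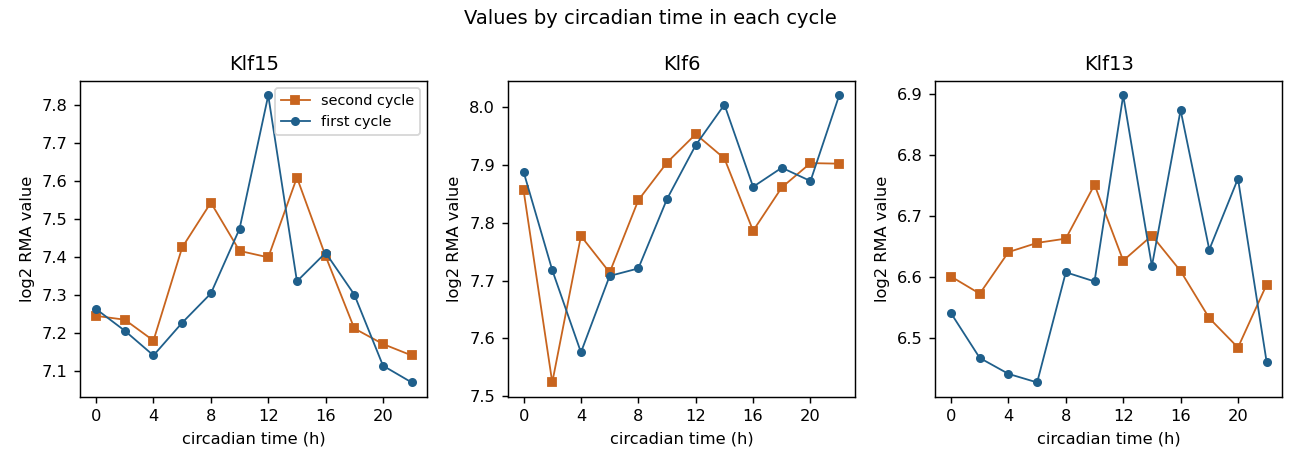
log2 RMA values (vertical axis) of Klf15, Klf6 and Klf13 against circadian time (h) in the second cycle (squares) and the first cycle (circles), 1 array per point. Klf15 and Klf6 follow similar courses in both cycles, while Klf13 is highest at circadian time 10 in the second cycle and at 12 and 16 in the first.

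The last comparison asked for a component of 12 h beside that of 24 h. Again 0 of the 8 genes were called by limma, against 0.0358% of all genes, and 1 of the 8 had an unadjusted p under 0.05, against 21.9%. That gene was Klf6, with a 12-h amplitude of 0.08 ± 0.03 and peaks at 10.45 ± 0.58 h of each 12-h cycle (unadjusted p = 0.0105, adjusted p = 0.144). Klf15 had a 12-h amplitude of 0.06 ± 0.03 (adjusted p = 0.415).

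Marker lists of the cell types that the dissection could hold were set against the same 7.65% of all genes called and 27.5% with an unadjusted p under 0.05. Of 10 neuron markers 6 were called (7 at an unadjusted p under 0.05), all with peaks before 6 h, and their mean had an amplitude of 0.13 ± 0.03. Limma called 0 of 8 pericyte and smooth muscle markers (1 at an unadjusted p under 0.05), 0 of 9 microglia markers (1), 0 of 9 oligodendrocyte markers (2) and 0 of 7 meningeal markers (3). The meningeal mean peaked at 16.7 h (amplitude 0.21 ± 0.09), near the peak of Klf6. In the second cycle it ranged from -0.46 at CT 50 to 0.39 at CT 42. In the first it ranged from -0.70 at CT 26, with -0.68 at CT 28, to 0.45 at CT 20. Klf6 was lowest at CT 50 and CT 28 and highest at CT 60 and CT 22. No fit used the meningeal mean as a covariate, and its part in the rhythm of Klf6 was not tested. The oligodendrocyte mean stood at -0.56 at CT 28 and -0.30 at CT 50, the lowest arrays of Klf6. Its own lowest array was CT 40 (-0.62), the array of highest background, where Klf6 stood 0.03 above its mean. At CT 36, the highest array of Klf15, the oligodendrocyte mean stood at 0.37. Its highest arrays were CT 20 (0.47) and CT 42 (0.46), where Klf15 stood at -0.205 and -0.107 from its mean. With it as a covariate the amplitude of Klf6 was 0.10, with an unadjusted p of 0.00858 against 0.00313 without it, and that of Klf15 0.19, with 2.75e-05 against 2.5e-05. The adjusted p was 0.0398 for Klf6 and 0.00157 for Klf15 in a fit that called 3399 genes in place of 1067. What part the oligodendrocyte content of the samples had in either rhythm was not tested. Of the other lists, limma called 1 of 10 astrocyte markers, Aldoc (4 at an unadjusted p under 0.05), 5 of 12 SCN markers (7), 1 of 5 anterior pituitary markers, Chga (3), 0 of 9 markers of neighbouring nuclei (2) and 0 of 7 ependymal markers (0).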

How the data were processed

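Each of the 24 arrays carried SCN RNA pooled from 3 mice, amplified and biotin-labelled. The deposited log2 values were normalised across arrays by RMA (1.3.1.187) in Affymetrix Expression Console, per the submitters' processing notes. Other settings and the genome build are not given in the sources used here. Of 35556 probe sets 21789 had 1 gene symbol, 1621 several, and the remaining 12146 were unnamed. The Entrez identifiers of 21698 matched RefSeq genes of GRCm38.p6. Each gene took its brightest probe set, and the dimmest genes, up to the 30th percentile of the means (log2 5.52), were not tested.

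Cosine and sine terms of 24 h (and 12 h), a cycle term and its interactions were fitted across 13956 genes with limma 3.58.1 (R 4.3.3, eBayes), with Benjamini-Hochberg adjustment and two-sided tests. With 1 array per time, the residual spread was the error, and it mixes mice, dissection and array. The number of arrays limits the precision. The fits were checked on simulated data with independent noise for each gene and no shared array background. The simulation gave a rhythm to only 67 genes at each amplitude, while the data had 1067 called genes. The adjustment depends on such counts, so the simulated shares may differ from those in the data. In the simulated data, 24-h rhythms were called for 49.3% of genes given an amplitude of 0.15 and for 91% at 0.3. Small rhythms can therefore be missed. Periods from 20 to 28 h were searched in steps of 0.1 h. Promoter motifs were searched in RefSeq sequences with Python 3.11.15.

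Members, gene lists and tests were chosen with earlier results of these data known. Named were all members, the 3 genes most like each called member, and up to 4 called genes per list by smallest p, or the 2 of smallest p where none was called, which no such list needed. Cell type markers are given as counts and means, and Cldn5, Aldoc and Chga were named after their values were seen. Some listed symbols had no probe set of a single symbol and were not analysed here. Alternatives covered filters, probe sets, normalisation, weights, prior, ranks, covariates, left-out arrays and a threshold of 0.01.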

Additional observations from a re-analysis of the deposited data

How the results depend on the processing

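Klf15 kept its call and direction in all 14 other settings (adjusted p from 0.00157 to 0.0253), in 24 of 24 leave-one-out fits and at a threshold of 0.01. Between 1 and 2 of the 8 genes were called for the 24-h rhythm when single arrays were left out. The count was 1, Klf15, with no filter on dim genes, with the anterior pituitary or the linear time covariate and at 0.01, although the amplitude of Klf6 stayed between 0.112 and 0.114 in these. Klf2, Klf4, Klf7, Klf9, Klf10 and Klf13 were called in none. Over all genes, 1067 were called rhythmic. The count was 534 with the array background covariate, 3399 with the oligodendrocyte marker covariate, 679 without CT 40, CT 62 and CT 64, 170 at 0.01, and 704 to 1440 with 1 array left out. The change between cycles, called by limma for 0 genes (1216 at an unadjusted p under 0.05), was called for 66 with the array background covariate, 5 with array weights and 0 to 1 with 1 array left out, and circadian time as a block gave 0. The 12-h rhythm, called for 5 genes, was called for 8 with array weights and with the filter at the 50th percentile, 2 with quantile normalisation and 0 to 9 with 1 array left out. It was called for 0 with no filter, all probe sets, ranks, the background, endothelial, oligodendrocyte, pituitary or linear time covariate, without the 3 arrays and at 0.01. No setting called any of the 8 genes for a change between cycles, a change in rhythm or a 12-h rhythm. The causes were not tested. The filter at the 50th percentile left out Klf4 and Klf10, whose dim signal limits what can be seen.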
